A study of Saccharomyces cerevisiae with 14 samples.

Results

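The genes described here encode the proteins of the large (60S) subunit of the cytosolic ribosome of the yeast Saccharomyces cerevisiae. They were chosen by symbol alone, as every row of the expression table named RPL with a number and an optional A or B, or RPP0, RPP1 or RPP2 with an optional A or B. The rule took 80 of the 5886 rows. One of them, RPP1, encodes a subunit of the tRNA- and rRNA-processing enzymes RNase P and RNase MRP and no ribosomal protein. Its level, 32.9 to 70.2 FPKM over the 14 libraries, was the lowest of the 80 in each library, and it was set apart. The other 79 genes encode 45 proteins, of which 34 come from an A and a B copy and 11 from a single gene. All 79 passed the filter on low values and none was listed at 0 in any library. RPL41A and RPL41B were not analysed here.

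RNA of strains with a changed lifespan gene was compared with RNA of the wild type. MSB3Δ, NIT3Δ and HSP26Δ lack a gene for a Rab GTPase-activating protein, for a member of the nitrilase family and for a small heat shock protein, and TYS1 DAmP has reduced mRNA of the essential tyrosyl-tRNA synthetase gene. Each mutant had 3 libraries and WT had 2, from log-phase cells in YPD (2% glucose, 2% peptone, 1% yeast extract), sequenced on a BGISEQ-500. The labels give the strain background as S288C, and the study's methods name BY4741, a MATa haploid with the alleles his3Δ1, leu2Δ0, met15Δ0 and ura3Δ0, which mutants and WT share. In the deletions a marker cassette replaced the reading frame. In the DAmP allele a KanR cassette placed right behind the reading frame lowers the mRNA, so the gene is reduced and not absent. The labels call the replicates biological and do not say whether they came from separate cultures or clones, so that the p-values measure the spread between these libraries. All mutants are set against the same 2 WT libraries, so that a shift in WT enters each comparison.

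A 60S subunit joins ribosomal RNA with one copy of most of these proteins. It holds the peptidyl transferase centre, the exit tunnel for the growing chain and the P stalk, which recruits the GTPases of translation. Most of the genes exist as A and B copies left from an ancient duplication of the genome, many of which carry an intron, unlike most yeast genes. Ribosomal protein genes are transcribed together through Rap1, Fhl1 with Ifh1, and Sfp1, under control of the TOR and PKA pathways, and their mRNAs are known to decrease when yeast cells are stressed or grow slowly.

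The libraries held an estimated 22000000 to 26100000 fragments each, recovered from the steps between low FPKM values. FPKM are fragments divided by the length of the transcript and by the total of the library, so that a gene's value is a share of its library. MSB3 averaged 0.007 FPKM in MSB3Δ libraries and 18.0 FPKM in WT, NIT3 0.11 in NIT3Δ and 270.5 in WT, HSP26 0.10 in HSP26Δ and 86.0 in WT, and TYS1 73.4 in TYS1 DAmP and 537.5 in WT. The a-cell receptor gene STE2 was present in every library, the alpha-factor gene MF(ALPHA)1 stayed between 0 and 2.13 FPKM, and MET17, the gene removed by met15Δ0, at 0.03 FPKM or less. NIT3Δ replicate 2 and MSB3Δ replicate 1 stood apart from the other libraries in the ribosomal protein genes. Values without them are given beside many of the results they move, but not for the lists of stress-linked genes and of genes that act on the members.

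Of the 79 genes, 53 carry an intron, and RPL7A and RPL7B carry 2 each. Of the 55 introns, 44 began with GTATGT and 52 held TACTAAC, the branch point motif of yeast introns. The first 24 bases of introns are shown for RPL18B, RPL22B and RPL7B, which are among the members that departed most from the others, for RPL22A, the copy of RPL22B, and for RPL30, whose protein is known to bind its own transcript and to block its splicing. The sequences run 5′ to 3′ in the sense of the gene, with the first 6 bases in capitals, and come from the R64 reference of RefSeq.
RPL18B, chrXIV:64427-64450, minus strand: GTATGTattgaaatctccctccca
RPL22A, chrXII:263206-263229, plus strand: GTATGAtactttaaaaggaatcca
RPL22B, chrVI:64897-64920, minus strand: GTACGTtaattttcgttcctatgt
RPL7B, chrXVI:173163-173186, plus strand: GTATGTcaaaaactacaaatacga
RPL7B, chrXVI:173666-173689, plus strand: GTATGTtcatttaccatgtttgaa
RPL30, chrVII:439094-439117, plus strand: GTCAGTataacatgattttataac
RPL18B and both introns of RPL7B began with GTATGT. RPL22A began with GTATGA, which 2 of the 55 introns had, and RPL22B with GTACGT, which 5 had. RPL30 was alone with GTCAGT. The second intron of RPL7B holds the snoRNA gene SNR59, and an intron of RPL7A holds SNR39. The stretch from TACTAAC to the end of the intron, with the motif and the last 3 bases in capitals, differed in length between these genes.
RPL18B, chrXIV:64019-64064, minus strand: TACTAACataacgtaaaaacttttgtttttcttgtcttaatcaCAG
RPL22A, chrXII:263534-263594, plus strand: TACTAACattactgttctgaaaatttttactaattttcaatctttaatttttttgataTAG
RPL22B, chrVI:64600-64621, minus strand: TACTAACataaaactgtaaCAG
It was 46 bases long in RPL18B, 61 in RPL22A and 22 in RPL22B.

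The 500 bases before each start codon were searched on both strands for 5 motifs. CACCCNNACA, a form of the Rap1 site, was present before 21.5% of the 79 genes, 19.6% of the 56 small-subunit genes and 1.76% of the 5581 others. GACGCA, a core of the Fhl1 site, was found before 19.0%, 10.7% and 10.7% of them, and AAAATTT, a form of the Sfp1 site, before 50.6%, 42.9% and 34.0%. TCNNNNNNNACG, a form of the Abf1 site, was found before 43.0%, 42.9% and 46.3%, and GATGAG, the core of the PAC motif, before 22.8%, 21.4% and 28.3%. Matches to the Rap1 form are shown, in capitals, for 4 members that the results name.
RPL42B, chrVIII:383093-383122, minus strand: acatccgataCACCCATACAtcatgaaaat
RPL22B, chrVI:65159-65188, minus strand: tccatgtcaaCACCCGTACAtattcagaga
RPL7A, chrVII:366229-366258, minus strand: atcatataaaCACCCACACAtatctataaa
RPL34A, chrV:270478-270507, minus strand: tttagtggtaTGTATGGGTGataaattttt
In RPL34A the match is on the opposite strand. A second pair of sequences is shown because RPL15A and RPL15B differ most in level. Each is the window from 300 to 101 bases before the start codon, with matches to any of the 5 motifs in capitals.
RPL15A, chrXII:202691-202890, minus strand: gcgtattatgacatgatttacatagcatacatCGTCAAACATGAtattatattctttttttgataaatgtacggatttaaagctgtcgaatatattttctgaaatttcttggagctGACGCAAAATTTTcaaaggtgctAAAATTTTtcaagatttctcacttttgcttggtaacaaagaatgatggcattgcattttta
RPL15B, chrXIII:510449-510648, minus strand: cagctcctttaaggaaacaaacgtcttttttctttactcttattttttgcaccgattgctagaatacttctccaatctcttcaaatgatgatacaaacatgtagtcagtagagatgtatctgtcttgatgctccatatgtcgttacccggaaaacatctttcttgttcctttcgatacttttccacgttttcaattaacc
The RPL15A window holds an Abf1 match, a GACGCA that shares its last base with an AAAATTT match, and a further AAAATTT match. The RPL15B window held no match to any of the 5. AAAATTTT reads as the Sfp1 form on both strands, so that each such run was found on both.

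The 79 genes made up a large share of the summed FPKM of all genes. They held 15.4%, 23.3% and 22.6% of it for MSB3Δ, 22.2%, 9.34% and 22.8% for NIT3Δ, 20.9%, 23.1% and 21.5% for HSP26Δ, and 21.0%, 22.7% and 24.9% for TYS1 DAmP, against 25.9% and 25.1% in WT. Each of the 12 mutant libraries lay below both WT libraries, by little in TYS1 DAmP replicate 3 and by most in NIT3Δ replicate 2. In these bulk samples, fewer cells with an mRNA and less of the mRNA per cell cannot be told apart.

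**Figure D1:**
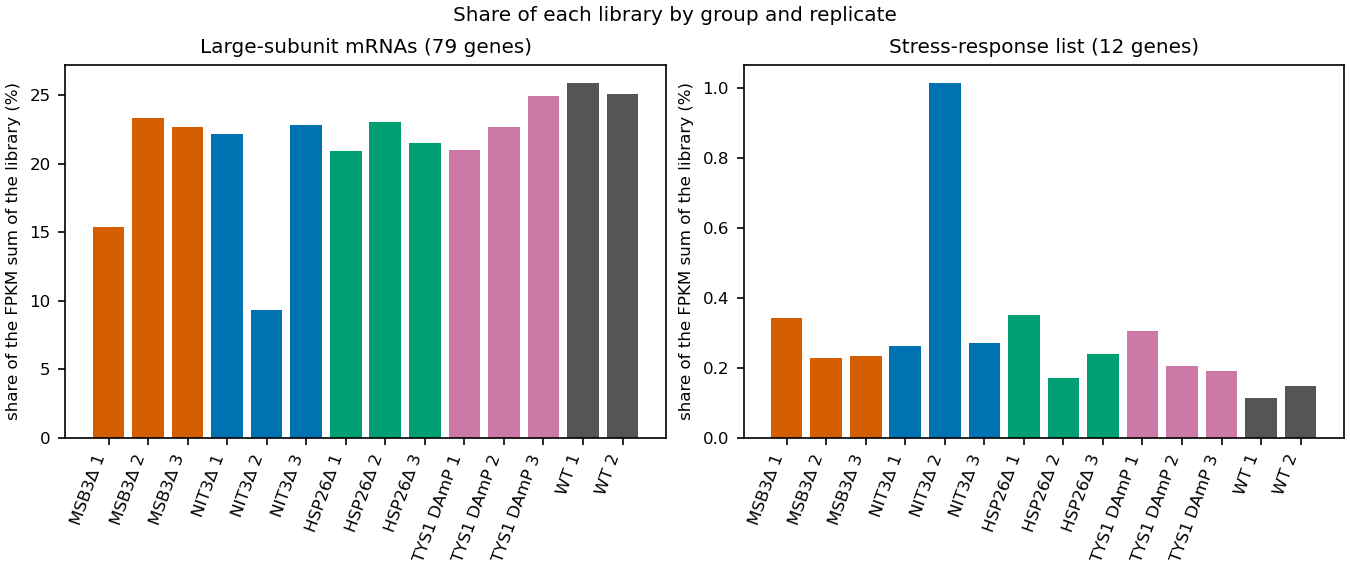
The summed FPKM of the 79 large-subunit genes as a percent of all genes, in each library, by group. NIT3Δ replicate 2 (9.34%) and MSB3Δ replicate 1 (15.4%) were the lowest, and every mutant library lay below both WT libraries (25.9% and 25.1%).

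For each mutant, log2(FPKM + 1) was compared with WT by limma on 5727 genes, those that averaged 1 FPKM or more. A gene was counted as lower or higher at the study's thresholds, a fold change below 0.7 or above 1.5 with an unadjusted p under 0.05, and the number with an adjusted p (Benjamini-Hochberg, over all genes) under 0.05 was counted apart. In MSB3Δ, 4 of the 79 genes were lower, where 0.559% of all genes were. In NIT3Δ 0 were lower (0.506% of all genes), in HSP26Δ 7 (2.41%) and in TYS1 DAmP 4 (1.64%). None was higher in any mutant, where 3.93%, 4.31%, 5.67% and 3.34% of all genes were. By limma with adjustment over all genes 0 of the 79 passed in any mutant, where 0.0175%, 0.0175%, 0.0349% and 0.0873% of all genes did. At an unadjusted p under 0.05 alone, with no limit on the fold, there were 4, 0, 13 and 7 members in MSB3Δ, NIT3Δ, HSP26Δ and TYS1 DAmP, where 6.44%, 5.05%, 15.6% and 7.74% of all genes passed. The share of higher genes among all calls was 87.6%, 89.5%, 70.2% and 67.0% in that order of mutants, and 60.4%, 60.5%, 49.4% and 59.9% after median-ratio scaling.

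Stress-linked genes were read beside the members. The 12 of the list include HSP12, the catalase gene CTT1 and the trehalose synthesis genes TPS1 and TPS2. Their FPKM summed to 5561, 3962 and 3907 for MSB3Δ, 4206, 14539 and 4678 for NIT3Δ, 5262, 3030 and 3932 for HSP26Δ, and 5279.6, 3384 and 3334 for TYS1 DAmP, against 2079 and 2563 in WT. Each mutant library was above both WT libraries. NIT3Δ replicate 2, the lowest library in the large-subunit genes, was the highest in this list, and MSB3Δ replicate 1 held the next highest sum. Of the 12 genes, 11, 10, 7 and 7 rose in MSB3Δ, NIT3Δ, HSP26Δ and TYS1 DAmP by the same thresholds. Over all genes 3.93%, 4.31%, 5.67% and 3.34% did. The list was chosen with earlier results of these data known, so that its counts are no independent evidence. The part of these genes in the ribosomal values was not tested.

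The members kept mostly to one side of WT although few were called. The median log2 fold change of the 79 was −0.42 for MSB3Δ, −0.76 for NIT3Δ, −0.33 for HSP26Δ and −0.21 for TYS1 DAmP, beside 0.18, 0.28, 0.08 and 0.07 for all genes. Of the 79, 76, 78, 78 and 73 had a negative value. Median-ratio scaling moved the median of all genes to 0.01, 0.02, −0.01 and −0.00. The members then lay at −0.59, −1.03, −0.43 and −0.29. That scaling divides all genes of a library by the same factor, so that the distance of the members from all genes could hardly change. Without MSB3Δ replicate 1 the median of the members was −0.19 in MSB3Δ, and without NIT3Δ replicate 2 it was −0.26 in NIT3Δ.

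**Figure D2:**
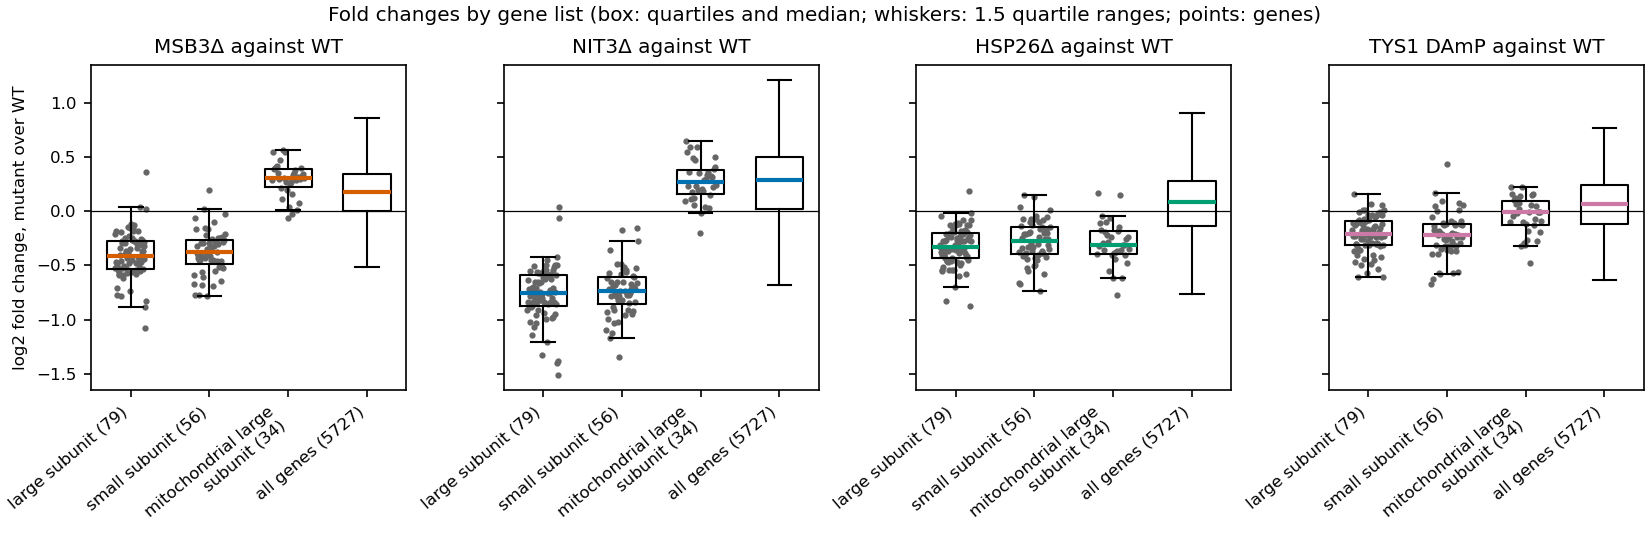
Log2 fold change against WT of the large-subunit, small-subunit and mitochondrial large-subunit genes and of all genes tested, for each mutant. Medians of the large-subunit genes were −0.42, −0.76, −0.33 and −0.21, below those of all genes in each mutant, and those of the small-subunit genes lay close to them.

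The members with all 3 mutant libraries below both WT libraries numbered 48 for MSB3Δ (8.08% of all genes), 61 for NIT3Δ (9.57%), 47 for HSP26Δ (13.2%) and 35 for TYS1 DAmP (12.4%). All 3 lay above both WT libraries for 1 member in MSB3Δ (26.1% of all genes), which was RPL29, and for none in NIT3Δ (38.6%), HSP26Δ (27.6%) or TYS1 DAmP (20.4%). Below WT in all 4 mutants were 18 members: RPL1A, RPL2B, RPL4A, RPL4B, RPL8A, RPL9A, RPL10, RPL11A, RPL12A, RPL13A, RPL18B, RPL21A, RPL21B, RPL24A, RPL27A, RPL30, RPL35B and RPL42B. They were 22.8% of the members, where 2.78% of all genes were below WT in all 4. Another 25 were so in 3 mutants, 16 in 2, 12 in 1 and 8 in none, where 3.51%, 4.64%, 12.3% and 76.8% of all genes were. The comparisons share the WT libraries.

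Single libraries carried unequal parts of this. Relative to the WT mean, the median of the members was −0.84, −0.15 and −0.20 on the log2 scale in the MSB3Δ libraries and −0.30, −1.73 and −0.20 in those of NIT3Δ. It was −0.46, −0.12 and −0.38 in HSP26Δ, −0.32, −0.24 and −0.08 in TYS1 DAmP, and 0.05 and −0.05 in WT. The number of members below both WT libraries ran from 43 in TYS1 DAmP replicate 3 to 78 in NIT3Δ replicate 2. In these libraries 16 members and 1 member were above both. The share over all genes was not counted per library, so that these numbers have no background beside them.

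**Figure D3:**
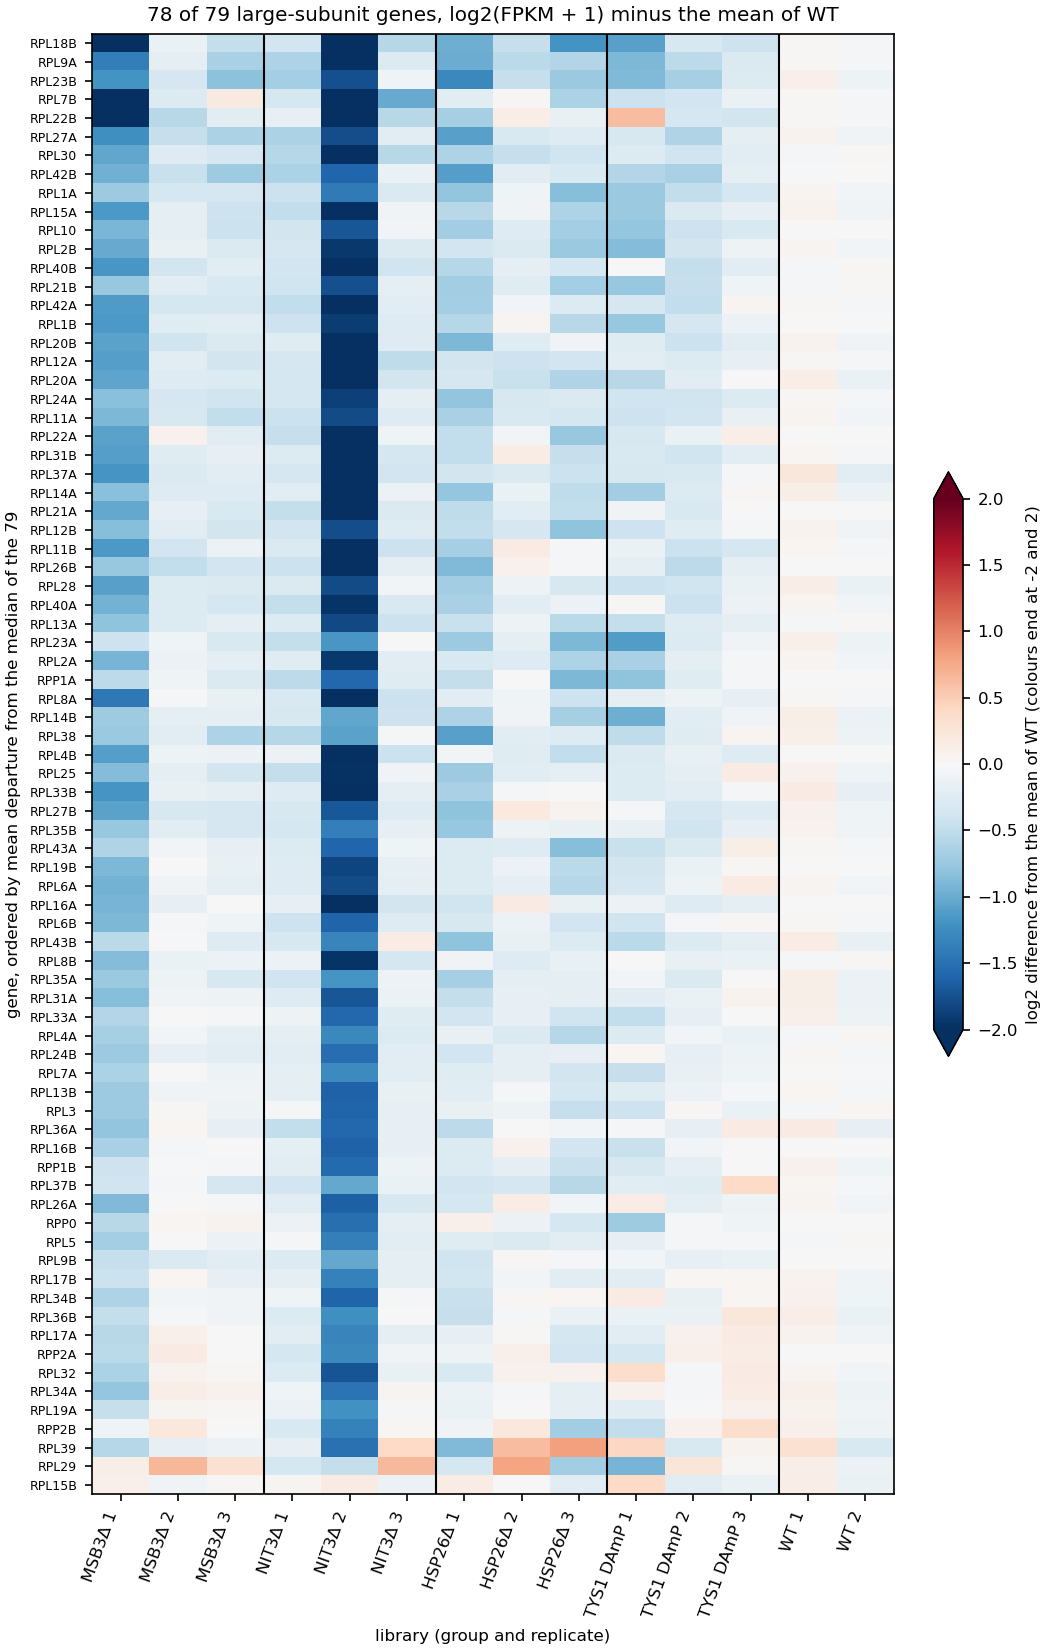
Log2 FPKM of 78 of the 79 genes relative to the mean of the WT libraries, in all 14 libraries. NIT3Δ replicate 2 (median −1.73) and MSB3Δ replicate 1 (median −0.84) were the lowest columns, and RPL15B stayed near its WT level in both.

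In MSB3Δ, RPL23B, RPL27A, RPL42B and RPL26B were lower. RPL42B had 6064, 8650.1 and 7215 FPKM in MSB3Δ, against 11910.0 and 11705 FPKM in WT. The log2 fold change was −0.71 ± 0.23 (SE, limma, adjusted p = 0.652). RPL42 sits near the exit site for tRNA on the large subunit. RPL27A had 5260.3, 8917 and 7927 FPKM in MSB3Δ, against 12964 and 11653 FPKM in WT, a log2 fold change of −0.77 ± 0.28 (limma, adjusted p = 0.652). RPL26B had 5944, 7144 and 7739 FPKM in MSB3Δ, against 10179.8 and 9966 FPKM in WT, with a log2 fold change of −0.55 ± 0.21 (limma, adjusted p = 0.652). RPL26 lies by the exit of the peptide tunnel. The libraries did not overlap with WT in any of these genes, and MSB3Δ replicate 1 was the lowest in each. Without it, RPL42B, RPL27A and RPL23B were still called and RPL26B was not, and without MSB3Δ replicate 3 RPL27A alone of the 4 was. Log2 fold changes without MSB3Δ replicate 1 were −0.58 for RPL42B, −0.55 for RPL27A and −0.44 for RPL26B.

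RPL23B was called lower in MSB3Δ, HSP26Δ and TYS1 DAmP. RPL23 lies at the interface with the small subunit. RPL23B had 4169, 7577 and 5454 FPKM in the MSB3Δ libraries, 5994, 2845 and 9020.4 in those of NIT3Δ, 3932, 6937 and 5764 in those of HSP26Δ and 5225, 6057 and 7917 in those of TYS1 DAmP, against 10262 and 8982 FPKM in WT. One library, NIT3Δ replicate 3, lay just above the lower WT library, and the other 11 mutant libraries were below both. The log2 fold changes were −0.79 ± 0.29 in MSB3Δ (limma, adjusted p = 0.652), −0.83 ± 0.26 in HSP26Δ (limma, adjusted p = 0.274) and −0.61 ± 0.20 in TYS1 DAmP (limma, adjusted p = 0.614). In NIT3Δ it was −0.84 ± 0.57 (limma, adjusted p = 0.563), and −0.38 without NIT3Δ replicate 2. The value in MSB3Δ was −0.58 without MSB3Δ replicate 1.

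RPL18B and RPL9A were called lower in HSP26Δ and TYS1 DAmP. RPL9 lies close to the sarcin-ricin loop, where translation factors bind. RPL18B had 219.7, 836 and 657 FPKM in the MSB3Δ libraries, 704, 99.0 and 616 in those of NIT3Δ, 466, 662 and 399 in those of HSP26Δ and 432, 729 and 683 in those of TYS1 DAmP, against 931 and 898 FPKM in WT. All 12 mutant libraries were below both WT libraries. The log2 fold change was −0.88 ± 0.23 in HSP26Δ (limma, adjusted p = 0.223) and −0.61 ± 0.25 in TYS1 DAmP (limma, adjusted p = 0.614). In MSB3Δ it was −0.89 ± 0.54 and in NIT3Δ −1.38 ± 0.83, with single libraries at 219.7 and 99.0 FPKM. Without MSB3Δ replicate 1 it was −0.30 in MSB3Δ, and without NIT3Δ replicate 2 it was −0.47 in NIT3Δ. RPL9A had 2508, 5780.4 and 4155 FPKM in the MSB3Δ libraries, 4271, 770.4 and 5410.1 in those of NIT3Δ, 3291, 4515 and 4380.3 in those of HSP26Δ and 3523, 4539 and 5350.2 in those of TYS1 DAmP, against 6663 and 6429 FPKM in WT. Again all 12 mutant libraries were below both WT libraries. Its log2 fold change was −0.70 ± 0.20 in HSP26Δ (limma, adjusted p = 0.233) and −0.57 ± 0.20 in TYS1 DAmP (limma, adjusted p = 0.614). In MSB3Δ it was −0.74 ± 0.36 and in NIT3Δ −1.33 ± 0.85, not called, and −0.42 and −0.45 without MSB3Δ replicate 1 and NIT3Δ replicate 2.

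In HSP26Δ, 4 further members were lower. RPL10 had 4914, 6616 and 4946 FPKM in HSP26Δ, against 8009 and 7853 FPKM in WT, a log2 fold change of −0.54 ± 0.20 (limma, adjusted p = 0.284). RPL10 joins the subunit late, in the cytoplasm, and reaches towards the peptidyl transferase centre. RPL12B, part of the base of the P stalk, and RPL21B had log2 fold changes of −0.54 each (limma, adjusted p = 0.284 for both). RPL23A had −0.60 ± 0.24 (limma, adjusted p = 0.308). HSP26Δ replicate 2 was the library nearest to WT in each of these 4 genes. Without it 19 members were lower (6.88% of all genes) and 5 had an adjusted p under 0.05 (8.17% of all genes), so that calls grew over all genes too. Without HSP26Δ replicate 1 or HSP26Δ replicate 3, RPL10, RPL23A and RPL21B were not called, nor RPL12B in the second case. Without WT replicate 1 or WT replicate 2, 1 and 2 members were lower (0.978% and 1.34% of all genes). With 1 WT library left, the spread came from the mutant libraries alone, and WT was assumed to vary as they did.

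In TYS1 DAmP the remaining call was RPL1A, from the mobile L1 stalk. RPL1A had 1817, 2168 and 2395 FPKM in TYS1 DAmP, against 3170.0 and 2939.8 FPKM in WT, a log2 fold change of −0.53 ± 0.17 (limma, adjusted p = 0.614). Its copies are 99.4% identical in coding sequence, so that the authors' counting could have split their reads either way. No member was called without TYS1 DAmP replicate 1, without WT replicate 1 or without WT replicate 2 (1.82%, 0.454% and 0.856% of all genes were lower), and 8 were without TYS1 DAmP replicate 3 (1.24%), RPL18B not among them. Leaving out TYS1 DAmP replicate 2 lost RPL9A and RPL23B. In MSB3Δ as well, none was called without WT replicate 1 or WT replicate 2 (0.227% and 0.157%). In NIT3Δ 2 members were lower without NIT3Δ replicate 1 (1.92%) and 2, RPL7B and RPL30, without NIT3Δ replicate 2 (1.05%).

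Members were next read relative to the others of the same library, by subtracting the median of the 79 from each member's log2 value over WT. RPL18B lay below that median in 11 of the 12 mutant libraries, with a mean of −0.52, and RPL9A in 12 of 12, with a mean of −0.42. RPL23B followed with a mean of −0.35 (11 of 12), RPL7B with −0.31 (9 of 12), RPL22B with −0.26 (8 of 12), and RPL27A and RPL30 with −0.22 each. The means of RPL7B and RPL22B rested on MSB3Δ replicate 1 and NIT3Δ replicate 2, and over the other 10 mutant libraries they were −0.08 and 0.02, where RPL18B had −0.36, RPL9A −0.31 and RPL23B −0.38. On the other side were RPL15B with a mean of 0.43, RPL29 with 0.42, RPL39 with 0.30, and RPP2B, RPL19A and RPL34A with 0.24 each. Over the same 10 libraries RPL15B had 0.23 and RPL29 0.28. RPL19A and RPL34A were above the median in all 12 mutant libraries and RPL32 (mean 0.22) in 11 of 12. When limma was run on values with the member median of each library subtracted, 0, 0, 1 and 0 members were past the thresholds in MSB3Δ, NIT3Δ, HSP26Δ and TYS1 DAmP, where 4.64%, 3.93%, 26.1% and 8.50% of all genes were. The one was RPL18B in HSP26Δ.

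**Figure D4:**
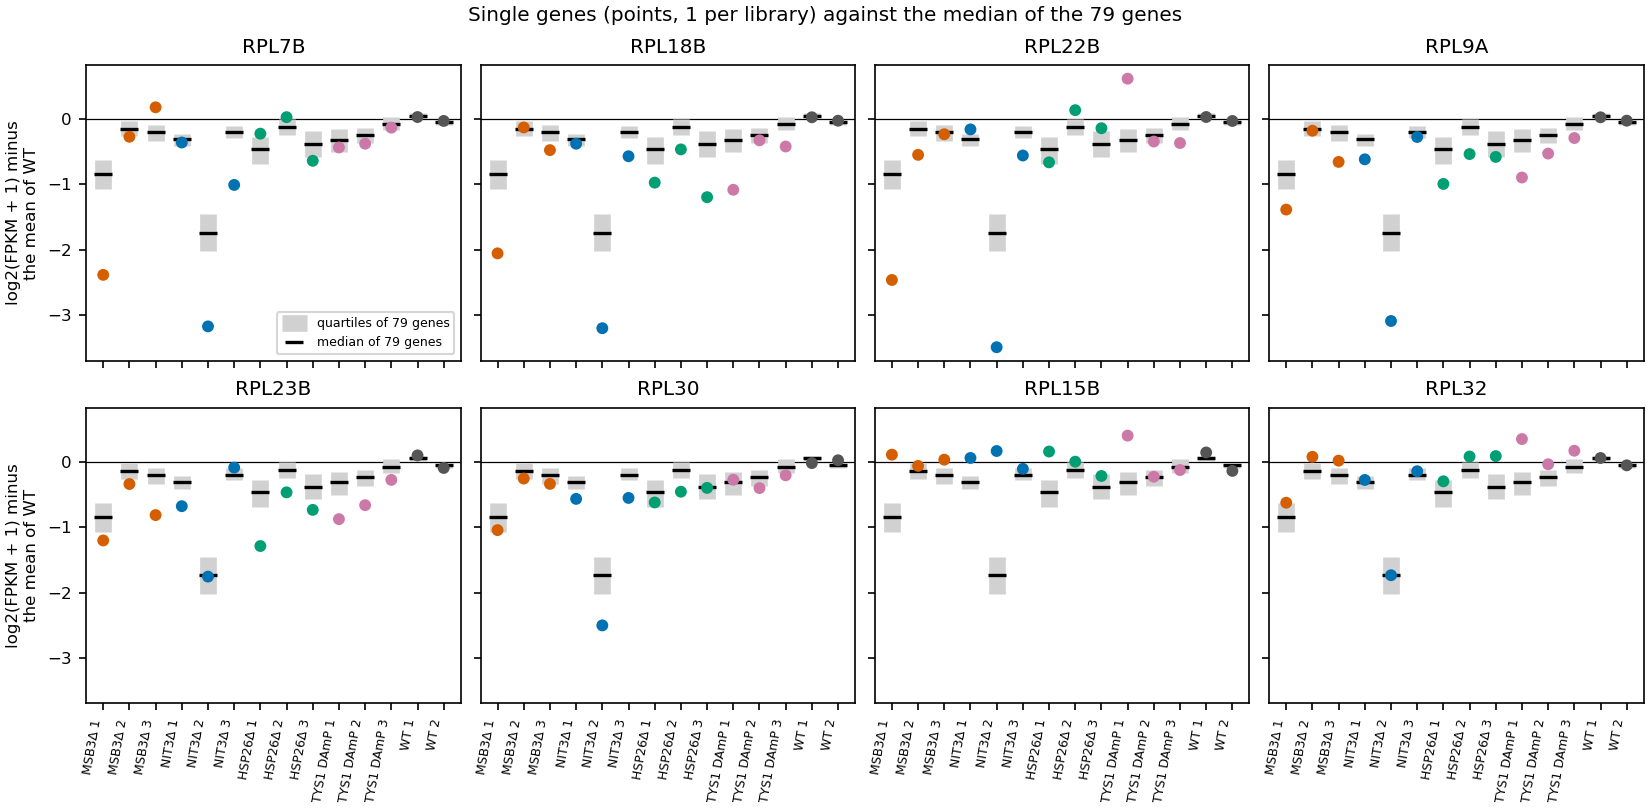
Log2 FPKM relative to the WT mean in each library for named members, with the median (black) and quartiles (grey) of the 79 genes. RPL9A lay below the median in all 12 mutant libraries, whereas RPL15B stayed near 0 where the median was at −1.73.

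RPL15B was the lowest member and the steadiest. RPL15 is embedded deeply in the ribosomal RNA. RPL15B had 171, 152 and 162 FPKM in the MSB3Δ libraries, 165, 178 and 147 in those of NIT3Δ, 177, 159 and 136 in those of HSP26Δ and 209.8, 135 and 145 in those of TYS1 DAmP, against 175 and 144 FPKM in WT. The mutant and WT values overlapped in each comparison. Its highest library held 1.55 times its lowest, where the median of the 79 genes was 3.59 times and RPL22B reached 17.4 times. Its copy RPL15A ran with the group, with 2243 to 9073 FPKM and a median of 6965 over the mutant libraries, against 9059.7 and 9933 in WT.

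RPL22B and RPL7B had the widest range between their highest and lowest library, 17.4 and 10.3 times. RPL22 is a protein that yeast can live without. RPL22B had 148, 559 and 695 FPKM in the MSB3Δ libraries, 732, 72.1 and 555 in those of NIT3Δ, 516, 897 and 741 in those of HSP26Δ and 1253, 644 and 633 in those of TYS1 DAmP, against 835 and 800.3 FPKM in WT. Values overlapped WT in HSP26Δ and TYS1 DAmP, and TYS1 DAmP replicate 1 was above every other library. RPL7B had 110.0, 478 and 653 FPKM in the MSB3Δ libraries, 449, 63.3 and 287 in those of NIT3Δ, 494, 588 and 370.2 in those of HSP26Δ and 427, 444 and 526 in those of TYS1 DAmP, against 589 and 565 FPKM in WT. The lowest values of both genes were again NIT3Δ replicate 2 and MSB3Δ replicate 1. Log2 fold changes of RPL22B were −1.08 ± 0.62, −1.40 ± 0.95, −0.22 ± 0.25 and −0.03 ± 0.32 in MSB3Δ, NIT3Δ, HSP26Δ and TYS1 DAmP. Those of RPL7B were −0.82 ± 0.70, −1.51 ± 0.78, −0.28 ± 0.22 and −0.31 ± 0.16, and none was called. Without MSB3Δ replicate 1, RPL22B was at −0.39 and RPL7B at −0.05 in MSB3Δ. Without NIT3Δ replicate 2, RPL22B was at −0.36 and RPL7B at −0.68 in NIT3Δ, where RPL7B was then past the thresholds.

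The 5S particle, made of 5S ribosomal RNA with RPL5 and RPL11, is built before it joins the subunit. RPL5 had 3018, 4772 and 4446 FPKM in the MSB3Δ libraries, 4668, 1871 and 4124 in those of NIT3Δ, 4086, 3932 and 4166 in those of HSP26Δ and 4312, 4674 and 4695 in those of TYS1 DAmP, against 4759 and 4878 FPKM in WT. The values of MSB3Δ replicate 2 passed one WT library and the rest stayed below both. RPL5 had log2 fold changes of −0.27, −0.54, −0.25 and −0.08 in MSB3Δ, NIT3Δ, HSP26Δ and TYS1 DAmP, RPL11A −0.57, −0.82, −0.43 and −0.31, and RPL11B −0.55, −0.98, −0.17 and −0.31. None was called. The values of RPL5, RPL11A and RPL11B in MSB3Δ without replicate 1 were −0.06, −0.41 and −0.25, and without NIT3Δ replicate 2 those in NIT3Δ were −0.13, −0.34 and −0.36. RPL11A lay below WT in every mutant library, with 1909 to 5926 FPKM against 6356 and 6847 in WT.

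The P stalk consists of RPP0 and of dimers of the acidic proteins RPP1A, RPP1B, RPP2A and RPP2B. Its 5 genes had a median log2 fold change of −0.15 for MSB3Δ, −0.61 for NIT3Δ, −0.18 for HSP26Δ and −0.17 for TYS1 DAmP, and none was called. The median was 0.05 in MSB3Δ without replicate 1 and −0.16 in NIT3Δ without replicate 2. RPP2B had 2280.0, 2812 and 2408 FPKM for MSB3Δ, 1959.6, 947 and 2491 for NIT3Δ, 2311, 2804 and 1489 for HSP26Δ and 1719, 2564 and 3077 for TYS1 DAmP, against 2590.1 and 2259.8 FPKM in WT. It overlapped WT in each comparison. RPP0 lay below both WT libraries in NIT3Δ and TYS1 DAmP, with log2 fold changes of −0.61 ± 0.52 and −0.27 ± 0.23, the first being −0.16 without NIT3Δ replicate 2. RPP1A had 2682 to 8051 FPKM over the mutant libraries, against 7924 and 8069 in WT.

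RPL40A and RPL40B are fusions of ubiquitin with a ribosomal protein and supply both. RPL40A had 8572, 13654 and 13023 FPKM in the MSB3Δ libraries, 11925, 4253 and 13461 in those of NIT3Δ, 10556, 14109 and 15367 in those of HSP26Δ and 16868, 12346 and 15314 in those of TYS1 DAmP, against 17248 and 15950.4 FPKM in WT. RPL40A had the highest mean of all 79 genes. The log2 fold changes of RPL40A were −0.53 ± 0.27, −0.91 ± 0.63, −0.33 ± 0.21 and −0.17 ± 0.17, and of RPL40B −0.59 ± 0.32, −1.03 ± 0.67, −0.37 ± 0.18 and −0.24 ± 0.17, in MSB3Δ, NIT3Δ, HSP26Δ and TYS1 DAmP, and none was called. They were −0.31 and −0.29 in MSB3Δ without replicate 1, and without NIT3Δ replicate 2 −0.39 and −0.40 in NIT3Δ. RPL32 lay highest relative to the group in TYS1 DAmP. RPL32 had 13557, 10383 and 11981 FPKM in TYS1 DAmP, against 11093 and 10263 FPKM in WT, with a log2 fold change of 0.16 ± 0.16. The values overlapped. RPL34A had 0.06 ± 0.14 there.

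RPL30, a single-copy gene, was below both WT libraries in every mutant library, with 864 to 4236 FPKM against 4821 and 4967 in WT. Its log2 fold changes were −0.55 ± 0.29, −1.21 ± 0.65, −0.49 ± 0.17 and −0.30 ± 0.13 in MSB3Δ, NIT3Δ, HSP26Δ and TYS1 DAmP. The value in MSB3Δ was −0.30 without replicate 1. Without NIT3Δ replicate 2 that in NIT3Δ was −0.56 with an adjusted p of 0.0397 (limma), in a fit in which 4.02% of all genes had an adjusted p under 0.05. In HSP26Δ the adjusted p was 0.279 (limma), and the fold change stayed above the limit of 0.7.

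The shortest members, RPL39 with a coding length of 156 bases and RPL29 with 180, have hardly any length left after the fragment length is taken off, so that their FPKM are uncertain. RPL39 lines the exit tunnel and RPL29 is dispensable for growth. RPL29 had 352, 514 and 402 FPKM in the MSB3Δ libraries, 253, 233 and 506 in those of NIT3Δ, 253, 564 and 200.2 in those of HSP26Δ and 169, 384 and 328 in those of TYS1 DAmP, against 350.2 and 299.9 FPKM in WT. RPL39 had 484, 643 and 661 FPKM in the MSB3Δ libraries, 645, 254 and 946 in those of NIT3Δ, 388, 1097 and 1276 in those of HSP26Δ and 958, 582 and 751 in those of TYS1 DAmP, against 889 and 581 FPKM in WT. RPL29 was above both WT libraries in all 3 MSB3Δ libraries, with a log2 fold change of 0.36 ± 0.23, not called. Over the 20 genes of 150 to 200 bases, the median log2 value over WT ran from −0.28 to 0.79 between libraries. Longer genes moved by library as well, from −0.30 to 0.61 over 644 genes of 300 to 600 bases. Over 1098 genes of 600 to 1000 bases it was −0.08 to 0.58. The part of gene length in the values of RPL29 and RPL39 was not tested.

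Levels differed between members although most proteins are needed in one copy per subunit. By mean FPKM, which is per length, RPL40A led with 13046, followed by RPL33A (12849), RPL25 (10560.0), RPL32 (9936) and RPL27A (8836). RPL25 is the docking site for factors at the tunnel exit. The lowest were RPL15B with 161, RPL29 with 343, RPL7B with 432, RPL18B with 595 and RPL22B with 649. Summed over copies, 43 proteins without RPL29 and RPL39 ranged 5.98-fold in WT around a median of 9618 FPKM. The highest sum was that of RPL40 with 24673 ± 774 (SD, n = 2), and the lowest that of RPL3 with 4123 ± 143 (SD, n = 2). The coding length was 387 bases in RPL40A and RPL40B and 1164 in RPL3. The part of gene length in these levels was not tested. RPL3 reaches into the peptidyl transferase centre.

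Within the pairs, the ratio of A to B in a library does not depend on how the library was scaled. It was taken as log2((A + 1)/(B + 1)). In WT it was highest for RPL15, at 5.89 or 59.3-fold, with RPL15A giving 98.4% of the sum. Other high ratios included those of RPL22 at 3.35, RPL7 at 3.04 and RPL9 at 2.43. B led most in RPL8 at −1.77, RPL36 at −1.67, RPL26 at −1.64, RPL16 at −1.15 and RPL23 at −1.02. With 3 against 2 libraries the exact permutation test has 10 splits and cannot go below p = 0.1, so that no shift of a ratio can pass 0.05. All 3 mutant libraries lay outside the range of WT for 9, 9, 10 and 11 of the 34 pairs in MSB3Δ, NIT3Δ, HSP26Δ and TYS1 DAmP, where 35.0%, 33.3%, 33.3% and 31.7% of 60 duplicate pairs did. The 60 are these 34 pairs and 26 others, all small-subunit ribosomal protein pairs but COX5 and NHP6. They are thus no background of duplicated genes in general. The share among the large-subunit pairs was near or below that of the 60 pairs, which include them.

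The RPL9 ratio was 1.51, 2.54 and 1.99 for MSB3Δ, 2.09, 0.37 and 2.35 for NIT3Δ, 1.84, 1.87 and 1.87 for HSP26Δ and 1.59, 2.06 and 2.27 for TYS1 DAmP, against 2.45 and 2.41 in WT. It was below both WT libraries in 11 of 12. Its shifts were −0.42, −0.83, −0.57 and −0.45 (exact permutation test, two-sided, p = 0.4, 0.5, 0.1 and 0.2). Leaving out replicate 1, 2 or 3 of the mutant gave −0.16, −0.68 and −0.40 for MSB3Δ, −1.07, −0.21 and −1.20 for NIT3Δ, and −0.26, −0.50 and −0.60 for TYS1 DAmP, and for HSP26Δ it stayed between −0.58 and −0.56. Relative to WT, A thus lay lower than B on average. RPL9B had 596 to 1231 FPKM in the mutants, against 1222 and 1208 in WT. It too lay below both WT libraries in every library of MSB3Δ, NIT3Δ and TYS1 DAmP.

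**Figure D5:**
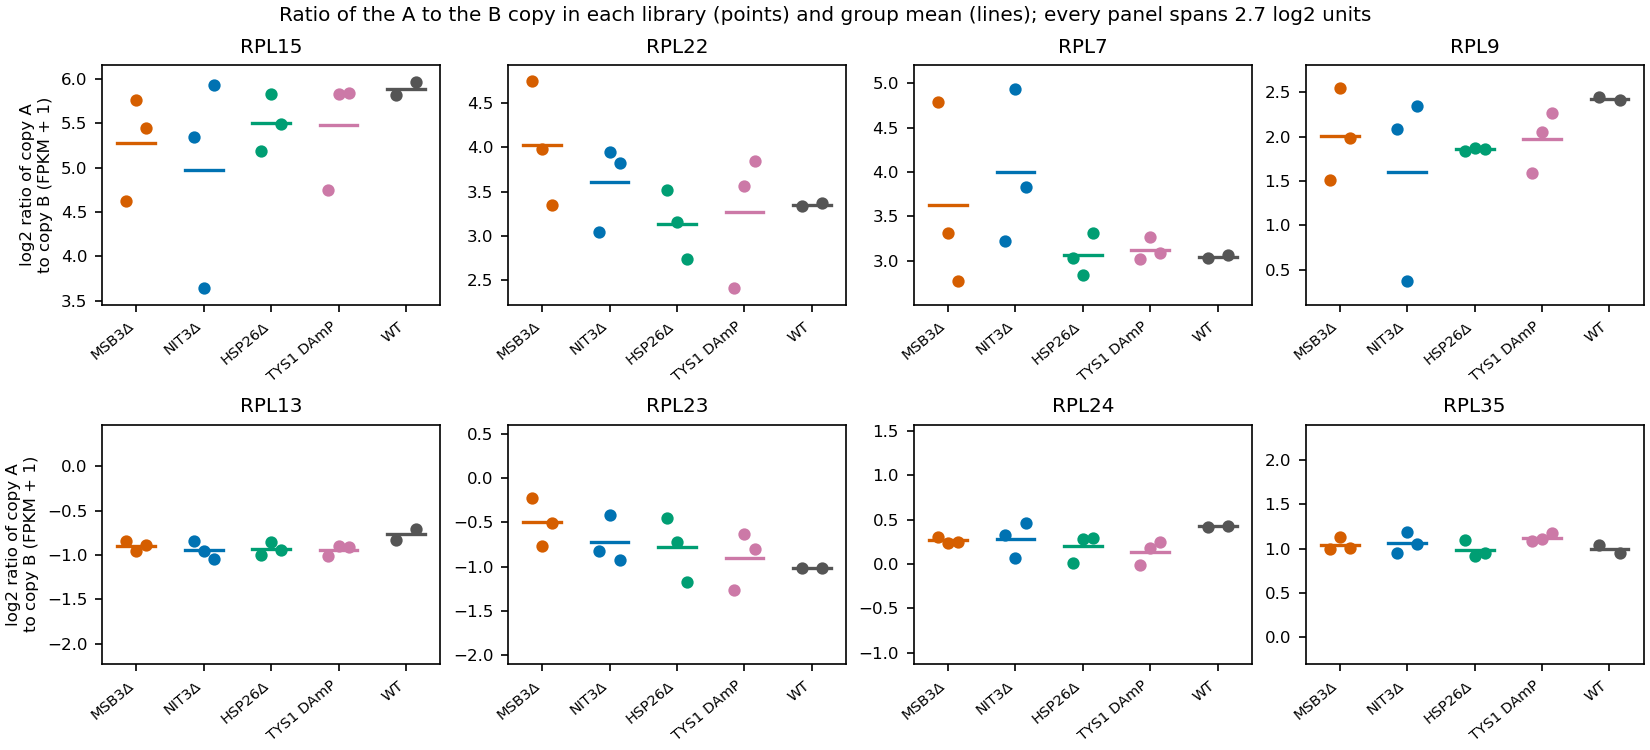
Log2 ratio of the A to the B copy in each library for named pairs, by group. The ratio of RPL9 was below both WT libraries in 11 of 12 mutant libraries, and that of RPL13 (−1.05 to −0.85 in the mutants, against −0.83 and −0.71 in WT) was below both in all 12. That of RPL23 was above both in 10 of 12.

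The RPL13 ratio was below both WT libraries in 12 of 12, between −1.05 and −0.85 in the 12 mutant libraries, against −0.83 and −0.71 in WT, with shifts of −0.13, −0.18, −0.16 and −0.17 (exact permutation test, p = 0.1, 0.2, 0.2 and 0.1). RPL24 was below both WT libraries in 11 of 12, with a shift of −0.16 in MSB3Δ and −0.29 in TYS1 DAmP (exact permutation test, p = 0.1 each). Its shift was −0.23 in HSP26Δ and −0.14 in NIT3Δ, the latter being −0.03 without NIT3Δ replicate 2. The WT ratios of RPL24 were 0.421 and 0.426, so close that nearly any library would fall outside them. Other pairs went the other way. The ratio of RPL2 was above both WT libraries in 11 of 12, and those of RPL19 and RPL23 in 10 of 12. The RPL15 ratio shifted by −0.61, −0.91, −0.39 and −0.41 (exact permutation test, p = 0.2, 0.5, 0.3 and 0.7). With replicate 1 of the mutant left out it was −0.28 for MSB3Δ, −0.23 for HSP26Δ and −0.05 for TYS1 DAmP, and with replicate 2 left out −0.25 for NIT3Δ. RPL22 shifted by 0.68 in MSB3Δ (exact permutation test, p = 0.3), and by 0.32 without MSB3Δ replicate 1. RPL7 shifted by 0.58 in MSB3Δ and by 0.95 in NIT3Δ (exact permutation test, p = 0.8 and 0.2), with ratios of 4.79 in MSB3Δ replicate 1 and 4.94 in NIT3Δ replicate 2, against 3.03 and 3.06 in WT. Without MSB3Δ replicate 1 the RPL7 shift in MSB3Δ was −0.0047, and without NIT3Δ replicate 2 that in NIT3Δ was 0.48. The copies of RPL1, RPL35, RPL4 and RPL42 are 99.4%, 99.2%, 98.9% and 98.1% identical in coding sequence, and those of RPL22 78.9%, so that the ratio is more certain in RPL22.

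The members were also read by subset. Median log2 fold changes in MSB3Δ, NIT3Δ, HSP26Δ and TYS1 DAmP were −0.42, −0.76, −0.34 and −0.20 for the 53 genes with an intron, and −0.41, −0.72, −0.26 and −0.22 for the 26 without. The less abundant copy of a pair had medians of −0.42, −0.76, −0.28 and −0.21, the more abundant copy −0.43, −0.80, −0.35 and −0.21, and the 11 single-copy genes −0.28, −0.61, −0.25 and −0.22. Without MSB3Δ replicate 1 the medians in MSB3Δ ran from −0.20 to −0.14 over these 5 subsets, and without NIT3Δ replicate 2 those in NIT3Δ ran from −0.28 to −0.17. The differences between subsets were not tested.

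The small-subunit genes gave medians of −0.38, −0.74, −0.27 and −0.22, and 2, 0, 5 and 4 of 56 were lower. Their medians were −0.15 in MSB3Δ without replicate 1 and −0.26 in NIT3Δ without replicate 2. Per library, the median of the large-subunit genes minus that of the small-subunit genes differed between mutant and WT by 0.12, 0.05, 0.06 and 0.11 on the log2 scale (exact permutation test, two-sided, p = 0.2, 0.9, 0.5 and 0.2). The 34 mitochondrial large-subunit genes had medians of 0.30, 0.27, −0.32 and −0.01, or 0.12 in MSB3Δ and 0.14 in NIT3Δ without those libraries, and 1 of them was lower, in HSP26Δ. They serve the ribosome of the mitochondrion and are controlled apart from the cytosolic genes.

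Genes that act on the members were counted by list. Of 13 regulators, TOD6, a repressor of ribosome biogenesis genes, was lower in MSB3Δ (log2 fold change −0.61, limma, adjusted p = 0.652), and CRF1, a corepressor that acts through Fhl1, was higher in TYS1 DAmP (0.72, limma, adjusted p = 0.517). No other regulator was called, and the medians of the list were 0.09, 0.29, 0.09 and 0.08. Of 5 dedicated chaperones that bind new large-subunit proteins, BCP1, the partner of RPL23, was lower in TYS1 DAmP (−0.53, limma, adjusted p = 0.573). Of 4 placeholder and stalk assembly factors, MRT4, which holds the place of RPP0 during assembly, was lower in TYS1 DAmP (−0.61, limma, adjusted p = 0.614). That list had medians of −0.42, −0.92, −0.46 and −0.54. Its median log2(FPKM + 1) was 8.02, 6.69 and 7.84 in the NIT3Δ libraries, against 8.46 and 8.41 in WT, so that NIT3Δ replicate 2 weighed most there. Of 8 methyltransferases of large-subunit proteins none was called, with medians of −0.02, −0.07, −0.14 and −0.22.

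Mutants were also set against each other, in 6 contrasts of a fit over all groups. By limma 0 members had an adjusted p under 0.05 in any contrast, and 3 had an unadjusted p under 0.05 in NIT3Δ minus TYS1 DAmP and 0 in the others. Over all genes 0.210% had an adjusted p under 0.05 in NIT3Δ minus TYS1 DAmP, 0.0524% in HSP26Δ minus TYS1 DAmP and 0.0349% in each of the other 4 contrasts. At the unadjusted p it was 7.54% in NIT3Δ minus TYS1 DAmP, 11.1% in NIT3Δ minus HSP26Δ and 2.30% in HSP26Δ minus TYS1 DAmP. For MSB3Δ minus NIT3Δ, HSP26Δ and TYS1 DAmP it was 1.13%, 6.37% and 3.44%. The smallest adjusted p was 0.48, for RPL7B in NIT3Δ minus HSP26Δ.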

How the data were processed

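Libraries of mRNA from 12 mutant and 2 WT samples were sequenced by the submitters. The authors deposited FPKM per gene, with 2 decimals; the submitters' processing notes name HISAT2 (2.1.0), Bowtie2, RSEM (1.3.1), DESeq2 (1.4.5) and the R64 build, without roles. The deposited table held 5886 rows, and replicates were not pooled. Depth was estimated from the steps of low FPKM over an effective length (coding length less a fragment length of 142 bases), where 91.8% of 683 values lay within 0.15 of whole fragments.

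Each mutant was compared with WT by limma (3.58.1, R 4.3.3; eBayes with trend and robust) on log2(FPKM + 1), with a minimum mean of 1 FPKM. The fold change is on that scale, which understates changes of low genes. Ratios of copies were tested by exact permutation. The fit was tested on simulated data. Python 3.11.15 with pandas 2.3.3, NumPy 2.4.6 and matplotlib 3.10.9 was used. Named genes are those past the thresholds, the 3 highest and lowest relative to the group in each comparison, the highest and lowest by level, members with set roles, and the pairs with the largest ratios and shifts. RPL42B and RPL26B were named because the study names them. The members and lists were chosen with earlier results of these data known. The series record speaks of 3 replicates in each group, and 2 WT libraries were used here. Alternatives were another pseudocount, filters, scalings, a joint fit, a replicate block, summed copies and leaving out each library. One member enters the counts, sums and medians, and its own values and its ratio to its copy are not reported here.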

Additional observations from a re-analysis of the deposited data

Results flagged for a closer look

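For 2 pairs, the libraries of one mutant were all above the WT libraries and those of another mutant all below them. The log2 ratio of RPL21A to RPL21B was shifted by −0.25 in NIT3Δ and by 0.31 in TYS1 DAmP against WT. NIT3Δ replicate 2 had a ratio of 0.149, and NIT3Δ replicates 1 and 3 had 0.635 and 0.597. TYS1 DAmP replicate 1 was the highest library, and TYS1 DAmP replicates 2 and 3 had 0.864 and 0.782. The WT libraries had 0.742 and 0.676, so that NIT3Δ replicate 2 and TYS1 DAmP replicate 1 weighed most in these shifts. The log2 ratio of RPL4A to RPL4B was shifted by −0.08 in HSP26Δ and by 0.09 in TYS1 DAmP, and its copies are 98.9% identical in coding sequence. In both cases the difference between the mutants was not tested.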

How the results depend on the processing

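The median of the members was negative in every comparison under each alternative, not counting the centring, which sets it near 0. The count of members called lower was less stable. Median-ratio scaling gave 2 in MSB3Δ, 17 in HSP26Δ and 1 in TYS1 DAmP, where 1.76%, 4.44% and 2.01% of all genes were lower, and scaling to the same FPKM sum gave 3 in HSP26Δ and 2 in TYS1 DAmP (1.48% and 1.07%). After centring on the median of the members 0, 1 and 0 were called in MSB3Δ, HSP26Δ and TYS1 DAmP. Of all genes 4.64%, 26.1% and 8.50% were called there, in either direction. The medians of the members were −0.0126 in HSP26Δ and −0.0356 in TYS1 DAmP by construction. A single fit over all groups gave 0, 3, 0 and 0 in MSB3Δ, NIT3Δ, HSP26Δ and TYS1 DAmP, and summing the copies, which leaves fewer genes, gave 2, 3 and 1 in MSB3Δ, HSP26Δ and TYS1 DAmP. For the scalings and the joint fit the cause was not tested. Leaving out 1 mutant library gave 3 to 6, 0 to 2, 4 to 19 and 0 to 8 members lower in MSB3Δ, NIT3Δ, HSP26Δ and TYS1 DAmP. Over all genes 0.629% to 1.92%, 0.419% to 1.92%, 1.61% to 6.88% and 1.24% to 4.10% were lower. With an adjusted p under 0.05 there were 0, 0 to 1, 0 to 5 and 0 members, where up to 2.27%, 4.02%, 8.17% and 3.14% of all genes passed. Leaving out any 1 library gave medians of −0.54 to −0.19, −1.04 to −0.26, −0.42 to −0.25 and −0.25 to −0.14 in that order. The large minus small subunit difference ranged from −0.0086 to 0.0811 in NIT3Δ, with the negative value without NIT3Δ replicate 2.

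Replicate numbers are shared between groups in the labels, but correlations of the deviations of same-numbered libraries ran from −0.774 to 0.441, and no mutant correlated over 0.1 with WT in both shared numbers, so that the numbers were not taken to pair mutants with WT. With a replicate block, 3, 6, 3 and 11 members were lower with MSB3Δ, NIT3Δ, HSP26Δ and TYS1 DAmP, where 1.99%, 1.69%, 2.06% and 1.92% of all genes were. None of the 4 members called in MSB3Δ without the block was among its 3. With the block 3 members in MSB3Δ and 3 in NIT3Δ had an adjusted p under 0.05, where 10.6% and 2.15% of all genes had. Between HSP26Δ and TYS1 DAmP each same-numbered pair correlated over 0.1 (0.207, 0.345 and 0.133), and a fit of these groups with the block, chosen after seeing the data, gave 0 members at an unadjusted or adjusted p (limma) under 0.05, as it did without the block. The block also gave RPL15B 0.0775 and RPL39 −0.139 in HSP26Δ.

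Among named genes near 0 the sign of the log2 fold change turned. Median-ratio scaling gave RPL15B −0.15 and RPP2B −0.134 in MSB3Δ, RPL15B −0.235 in NIT3Δ, and RPL39 −0.017 and RPL34A −0.0108 in TYS1 DAmP. Scaling to the same sum gave RPL29 0.0961 in NIT3Δ and RPL32 0.0697 and RPL15B 0.0931 in HSP26Δ. Centring gave RPL39 0.313 and RPL29 0.671 in NIT3Δ and RPL32 0.274 and RPL15B 0.298 in HSP26Δ. Leaving out 1 library gave RPL15B −0.116 to 0.165, RPP2B −0.0568 to 0.14 and the RPL7 ratio −0.0047 to 1.01 in MSB3Δ. In NIT3Δ it gave RPL39 −0.828 to 0.119, RPL29 −0.414 to 0.143 and RPL15B −0.104 to 0.177. In HSP26Δ it gave RPL32 −0.111 to 0.082, RPL15B −0.162 to 0.119 and RPL39 −0.139 to 0.718, and in TYS1 DAmP RPL39 −0.249 to 0.364 and RPL34A −0.0415 to 0.169. Of 272 values of named genes under the alternatives, leaving-out aside, 202 kept direction and call, 50 lost the call, 6 gained it and 14 turned. Depth was not the limit for most members, whose estimated fragments were 384.7 or more in each library apart from RPL39 (89.0) and RPL29 (162.9).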
